A study of Mus musculus with 12 samples.

Results

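Tumours with an activating Braf edit and without Tgfbr2 were compared with normal mouse colon over all genes. The comparison takes 8 of the 12 libraries of the study, chosen by their labels, 4 of tumour and 4 of normal colon. The tumour group, called BT-T here as in the labels, has the genotype BrafV600E;Tgfbr2-/- and grew from engrafted colonic organoids. The other group, called N, is normal colon of wild type mice, which the study describes as adjacent tissue. All 8 libraries carry the label of the immunodeficient strain NSG. The labels name no other allele or treatment and give no age. They do not say whether the 4 tumours came from 1 edited organoid line or from several, nor whether each library is a different animal, so p values measure only the spread between these libraries, perhaps technical. Another group of 4 tumour libraries, BTPRZ-T, entered the model only to share its estimate of the spread. Poly(A) RNA was sequenced and each value is a count of reads per gene. Levels are given in CPM, a read count scaled to library size with TMM factors. Runs of 4 levels are in the order of replicates 1 to 4.

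Braf is a kinase of the pathway that runs from growth factor receptors through MEK to ERK, and the V600E form signals without an upstream receptor. Tgfbr2 is the receptor that binds TGF-beta and starts its growth-arresting signal in colon epithelium. Normal colon is lined by absorptive colonocytes, which take up salt, water and short-chain fatty acids, and by goblet cells, which secrete the mucin gel. Both sit on a connective tissue of fibroblasts, vessels and immune cells, with muscle and nerve beneath. NSG mice lack mature T, B and natural killer cells.

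The 8 libraries held 16478975 to 26052772 reads in genes. N replicate 2 stood apart. Its 85 ribosomal protein genes took 10.99% of gene reads, where the 7 others lay between 1.59 and 2.74%. Reads were seen for 14175 genes in it and for 16152 to 17266 in the 7 others. Slopes of log2 level on log2 length were taken relative to the mean of the 8 libraries, N replicate 2 included. The slope of N replicate 2 was -0.87 for each doubling of length, and the others lay between -0.04 and 0.20. Its log levels correlated with those of the other N libraries at r = 0.788 to 0.816 across genes, while all other pairs within a group lay at 0.958 to 0.982, and genes are not independent replicates. Counts below are therefore also given without N replicate 2.

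The sex-linked transcripts differed between libraries of a group. Xist, made from the inactive X chromosome, stood at 1.09, 16.6, 2.84 and 1153 CPM in N and at 1381, 210.4, 396 and 95.8 CPM in BT-T. The Y-linked gene Ddx3y stood at 43.7, 37.3, 33.4 and 0.0675 CPM in N and at 0.0348, 47.6, 39.4 and 40.7 CPM in BT-T. N replicate 4 and BT-T replicate 1 held Xist and next to no Ddx3y, and the other 3 tumours held both.

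In all, 14860 of 24054 genes had enough reads to be tested. A gene is called here when its Benjamini-Hochberg adjusted p from edgeR's quasi-likelihood test is under 0.05. With all libraries 1274 genes were called, 8.57% of those tested, of which 843 were higher in BT-T (5.67%) and 431 lower (2.90%). Without N replicate 2, 2030 of 15045 genes were called (13.5%), 1172 higher (7.79%) and 858 lower (5.70%). Counts for the gene lists below should be read beside these shares, as a list near them differs little from all tested genes. Both fits called 816 genes higher and 414 lower, and none of the shared calls changed direction. Leaving out N replicate 2 removed 44 calls and added 794, of which 353 were higher and 441 lower in BT-T. In 1992 tested genes every BT-T library lay above every N library (13.4%), and in 1341 every one lay below (9.02%). Of the 1230 genes called in both fits in the same direction, 1209 had no overlap between the groups. Lack of overlap in a called gene named below therefore adds little to the call. The count of calls also moved by more than 1.5 times without N replicate 1 (757) and without BT-T replicates 2, 3 or 4 (624, 688 and 722).

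**Figure D1:**
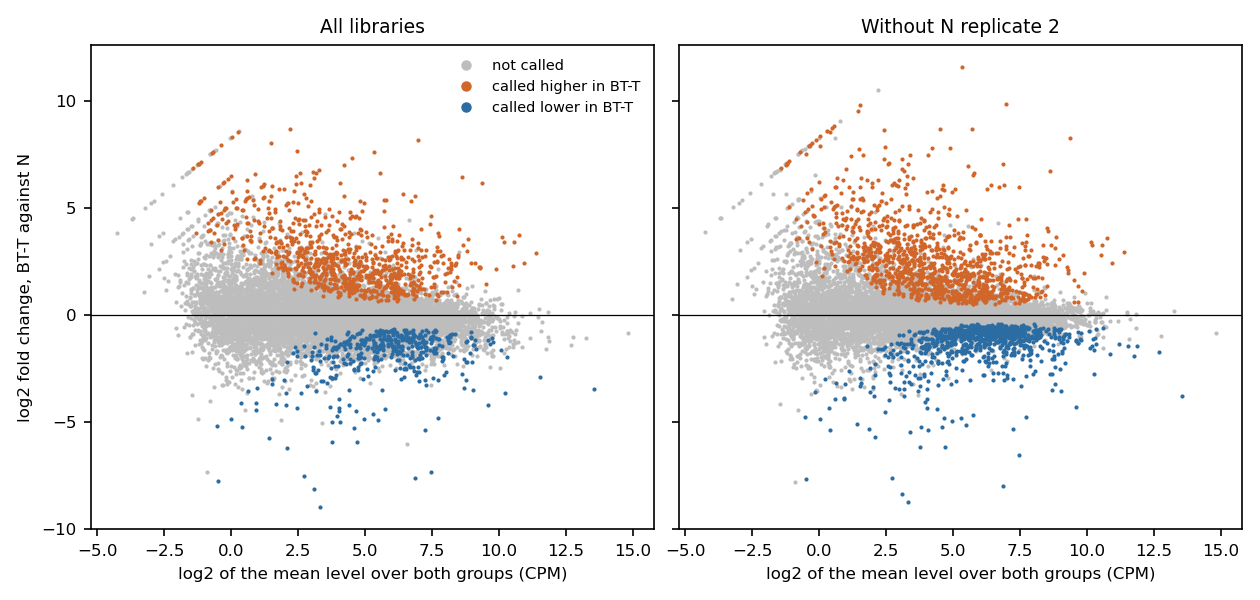
Log2 fold change of BT-T against N for each gene tested with all libraries, against the log2 of its mean level over both groups, with all libraries (left) and without N replicate 2 (right, on the same horizontal positions). Orange points are the genes called higher in BT-T, 843 on the left, and blue points those called lower, 431 on the left. Orange and blue points are nearer to equal in number on the right.

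The calls that depended on N replicate 2 were not spread evenly over transcript length. Of 14183 genes with a length, the shortest of 3 equal classes (66 to 2601 bases) had a median log2 fold change of -0.42, and of 0.01 with N replicate 2 left out. In the longest class (4249 to 123179 bases) the medians were 0.07 and -0.09. With all libraries 4.95% of the shortest genes were called lower in BT-T and 1.06% of the longest. With that library left out these shares were 6.36 and 4.80%. The shares called higher were 4.74% of the shortest and 5.99% of the longest genes with all libraries, and 8.08 and 7.15% without that library. Over all genes the median log2 fold change was -0.10, and -0.03 with N replicate 2 left out.

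By gain in mean CPM among genes called in both fits, the first 15 were Col3a1, Col1a1, Fn1, Col1a2, Sparc, Bgn, Igfbp5, Spp1, Col4a1, Thbs1, Col4a2, Tnc, Aldh1a3, Clu and Krt7. Genes whose libraries overlapped between the groups were left out of this ranking. Col3a1, a fibrillar collagen chain of loose connective tissue (GRCm38 chromosome 1, 45311538 to 45349706), stood at 474, 716, 629 and 741 CPM in N and at 3035, 4524, 4191 and 6888 CPM in BT-T (log2 fold change 2.86 ± 0.45, edgeR adjusted p = 0.00255). Every tumour library held several times the level of every N library. Fn1, which encodes the adhesive matrix protein fibronectin, stood at 212, 635, 695 and 943 CPM in N and at 1973, 4984, 3644 and 2479 CPM in BT-T (log2 fold change 2.397 ± 0.55, edgeR adjusted p = 0.0189). The Fn1 call was lost without BT-T replicate 2 or 3 (edgeR adjusted p 0.0504 to 0.0655). Sparc, a collagen-binding matrix protein, stood at 259 to 943 CPM in N and 2230.2 to 2929 CPM in BT-T. The Sparc call was lost without N replicate 1 or 3, or BT-T replicate 4 (edgeR adjusted p 0.0539 to 0.0619). Spp1 encodes osteopontin, a secreted phosphoprotein of bone, macrophages and many tumours (chromosome 5, 104435118 to 104441050). It stood at 4.32, 61.5, 4.79 and 3.71 CPM in N and at 1249.7, 1866, 1383 and 762 CPM in BT-T. N replicate 2 held the highest Spp1 level of the N group and still lay far below the lowest tumour. The fold change (log2 fold change 6.15 ± 1.21, edgeR adjusted p = 0.00774) was larger on leaving N replicate 2 out (8.26 ± 1.01, edgeR adjusted p = 0.000501).

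A metabolic enzyme, a keratin and a chaperone stood among them. Aldh1a3, an enzyme that makes retinoic acid (chromosome 7, 66390890 to 66427517), stood at 3.11, 13.7, 5.91 and 13.3 CPM in N and at 646, 879, 811 and 803 CPM in BT-T. The groups were far apart and the 4 tumours lay close together (log2 fold change 6.45 ± 0.53, edgeR adjusted p = 0.000127). Krt7, a keratin of simple ducts and glands, stood at 119, 293, 115 and 164.7 CPM in N and at 866, 887, 1013 and 933 CPM in BT-T (log2 fold change 2.42 ± 0.34, edgeR adjusted p = 0.00119). The tumours again lay close together, with N replicate 2 the highest of the N libraries. Clu, a secreted chaperone and complement regulator, stood at 34.8, 89.1, 48.4 and 117 CPM in N and at 867, 419, 1818 and 249 CPM in BT-T (log2 fold change 3.54 ± 0.61, or 2.83 without BT-T replicate 3, edgeR adjusted p = 0.00383). Its level varied widely among the tumours, from 249 to 1818 CPM.

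By loss in mean CPM, 14 of the first 15 were Muc2, Agr2, Guca2a, Oit1, Cyp2c55, Klk1, Lgals3, Slc25a5, Car4, Aqp4, B2m, Car2, Nov and Krt20. Muc2, the gel-forming mucin of the colon (chromosome 7, 141690340 to 141754693), stood at 17353, 3766, 48471 and 18350.3 CPM in N and at 1937, 1643, 2680.5 and 1716 CPM in BT-T (log2 fold change -3.46 ± 0.69, or -2.72 without N replicate 3, edgeR adjusted p = 0.00816). It took 4.51% of all gene reads in N replicate 3 and 0.178 to 0.294% in BT-T. N replicate 2, at 0.290% of gene reads, lay within that range, and above it on the TMM scale. Guca2a, which encodes guanylin, a peptide that makes the epithelium secrete chloride and water, stood at 1439, 5270.0, 1563 and 702 CPM in N and at 376, 108, 83.1 and 150.05 CPM in BT-T (log2 fold change -3.65 ± 0.70, or -2.78 without N replicate 2, or -4.30 without BT-T replicate 1, edgeR adjusted p = 0.00723). Here N replicate 2 was the highest library, and all 4 tumours lay below all 4 N libraries. Nov, a secreted matricellular protein, stood at 662, 676, 665 and 749 CPM in N and at 226, 50.2, 61.2 and 70.1 CPM in BT-T (log2 fold change -2.75 ± 0.45, or -3.51 without BT-T replicate 1, edgeR adjusted p = 0.00291). Cyp2c55, a cytochrome P450 of the colon, stood at 1518, 1197, 1886 and 1215 CPM in N and at 114, 110.1, 24.5 and 67.8 CPM in BT-T (log2 fold change -4.203 ± 0.57, edgeR adjusted p = 0.00113). None of these genes overlapped between the groups, which was a condition of the ranking. Over all tested genes, every BT-T library lay below every N library in 9.02%.

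Of these 14 falls, Muc2, Guca2a, Cyp2c55, Aqp4 and Nov kept the call whichever single library of N or BT-T was left out. Agr2, a disulfide isomerase that folds mucins in the endoplasmic reticulum, was called with all libraries (edgeR adjusted p = 0.0287). Its level in N replicate 2, 15115 CPM, was far above the 1458 to 2331 CPM of the other N libraries. Its log2 fold change was -1.44 ± 0.36, edgeR adjusted p = 0.0208 on leaving that library out. Krt20 is the keratin of the colonic surface and Car4 and Car2 are carbonic anhydrases of the same cells. The calls of Agr2, Oit1, Klk1, Lgals3, Slc25a5, Car4, B2m, Car2 and Krt20 were each lost without BT-T replicate 2 (edgeR adjusted p 0.0816 for Car4 to 0.144 for Krt20) and without BT-T replicate 3 (0.0552 for Car4 to 0.139 for Krt20). All but Car2 were lost without BT-T replicate 4 too, and leaving out BT-T replicate 1 or N replicates 1, 3 or 4 ended 1 or more of them.

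**Figure D2:**
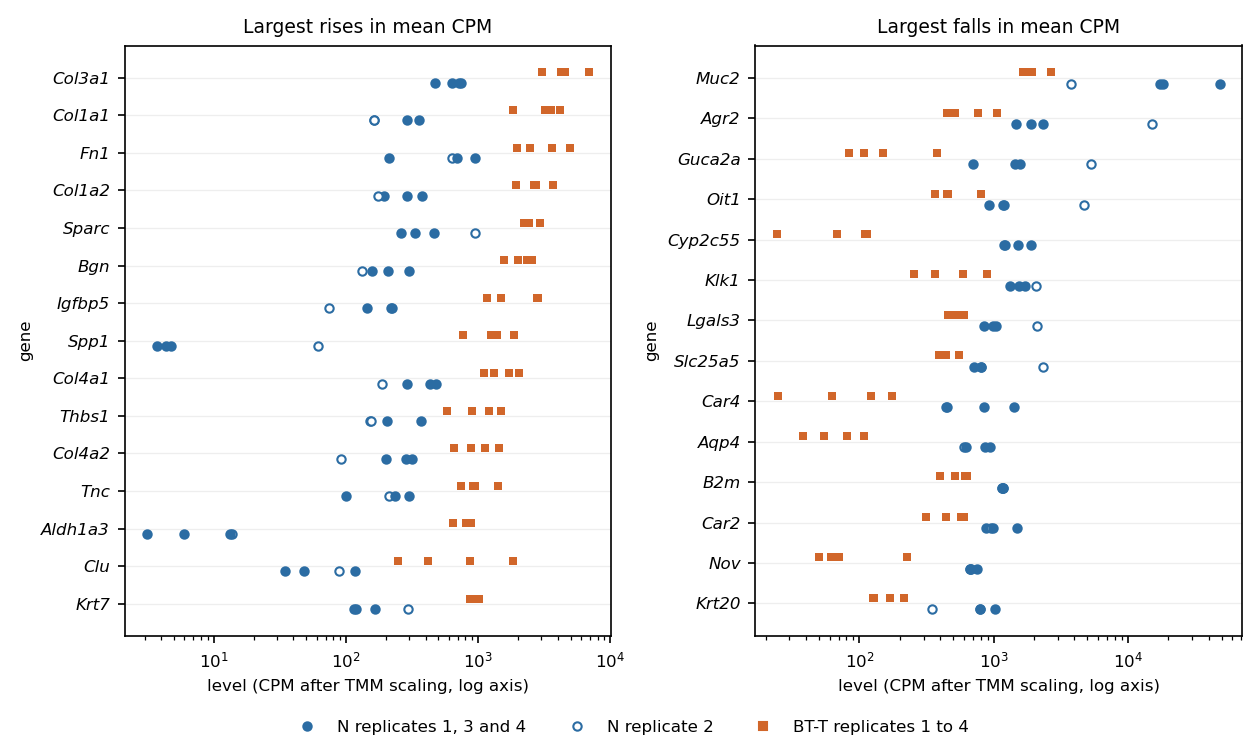
Level of each gene in each library (CPM, log axis) for the 15 genes with the largest rise (left) and 14 of the 15 with the largest fall (right) in mean CPM, among genes called in both fits without overlap between the groups. Circles are N libraries, with N replicate 2 open, and squares are BT-T libraries. The open circle lies well apart from the other N libraries for Spp1, Agr2, Guca2a, Oit1 and Muc2.

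Epcam, Krt8, Krt19 and Cdh1, which mark simple epithelium at large, were not called with or without N replicate 2, while the keratins Krt7 and Krt20 were called as given above. Krt18, another epithelial marker, named after its values were seen, was not called either. It lay higher in every tumour, at 467 to 553 CPM in N and 654 to 828 CPM in BT-T (log2 fold change 0.51 ± 0.24, edgeR adjusted p = 0.218). Epcam, the surface marker of epithelial cells, stood at 1175 to 1671 CPM in N and 949 to 1244 CPM in BT-T (log2 fold change -0.40 ± 0.28, edgeR adjusted p = 0.405). Krt8 stood at 3003 to 4449.9 CPM in N and 2439.7 to 3044 CPM in BT-T and Krt19 at 2382 to 4142 CPM in N and 2435 to 3002 CPM in BT-T, and the cadherin gene Cdh1 at 531 to 2163 CPM in N and 1345 to 1661 CPM in BT-T. Cdx2, the homeobox factor of intestinal identity, stood at 156 to 301 CPM in N and 56.8 to 94.8 CPM in BT-T and fell by 1.67 ± 0.30 on the log2 scale (edgeR adjusted p = 0.00450). In bulk tissue fewer cells of a type and less RNA per cell cannot be told apart. This holds for each cell type named below.

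Genes that build the brush border, the layer of microvilli on the absorptive surface, gave few calls with all libraries. Of 23 tested, 1 rose and 2 fell, where 5.67% of all tested genes were called higher and 2.90% lower. On leaving out N replicate 2, 1 rose. The number that fell ranged from 1 without any 1 library other than N replicate 2 to 8 without N replicate 2. Dpep1, a dipeptidase anchored in the apical membrane (chromosome 8, 123186242 to 123201812), stood at 419.9, 416, 459 and 346 CPM in N and at 11.7, 15.5, 8.49 and 23.2 CPM in BT-T. The groups were separated by more than 10 times and each was tight (log2 fold change -4.80 ± 0.44, edgeR adjusted p = 0.000204). Vill, a relative of the actin bundler villin, went the other way, 1.21, 2.37, 0.886 and 3.44 CPM in N and 16.9, 29.8, 52.3 and 29.7 CPM in BT-T (log2 fold change 4.03 ± 0.51, edgeR adjusted p = 0.000816). Alpi, intestinal alkaline phosphatase, stood at 11.4 to 92.0 CPM in N and 1.32 to 3.50 CPM in BT-T. The Alpi call was lost without any 1 library other than N replicate 2 (edgeR adjusted p 0.0598 to 0.149). Vil1 itself, the villin of the microvillus core, stood at 787, 245, 757 and 848 CPM in N and at 419, 339, 422 and 529 CPM in BT-T and was not called (edgeR adjusted p = 0.376, and 0.0758 without N replicate 2). The 6 further genes called without N replicate 2 include the microvillar cadherins Cdhr2 and Cdhr5, named after their values were seen. Cdhr2 stood at 1056, 102, 879 and 1105 CPM in N and 239, 277, 199 and 452 CPM in BT-T (log2 fold change -1.80 ± 0.49, edgeR adjusted p = 0.0310 without N replicate 2). N replicate 2 lay below all 4 tumours, and the other N libraries above them.

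Transporters of ions, acid and water fell in part. Of 29 tested, 7 fell and none rose, with a median log2 fold change of -0.99 over the tested members, beside -0.10 over all tested genes. The number that fell ranged from 2 without BT-T replicate 2 or 3 to 12 without N replicate 2. Slc9a3, the sodium-proton exchanger of the absorptive surface (chromosome 13, 74121457 to 74169442), stood at 265, 34.2, 147 and 486 CPM in N and at 1.74, 0.292, 1.67 and 0.912 CPM in BT-T. The tumours held at most 1.74 CPM, and N varied more than 10 times within the group (log2 fold change -7.63 ± 0.91, or -6.99 without N replicate 4, edgeR adjusted p = 0.000562). Aqp4, a basolateral water channel, stood at 938, 599, 856 and 626 CPM in N and at 108, 38.2, 81.2 and 54.1 CPM in BT-T (log2 fold change -3.42 ± 0.48, edgeR adjusted p = 0.00129). The Aqp8 call was lost without N replicate 1, or BT-T replicate 2, 3 or 4 (edgeR adjusted p 0.0519 to 0.0689). This apical water channel stood at 481, 34.2, 217 and 583 CPM in N and at 52.9, 49.6, 22.1 and 46.6 CPM in BT-T, and N replicate 2 overlapped the tumours. The Slc26a3 call was lost without BT-T replicate 2 or 3 (edgeR adjusted p 0.0541 to 0.0761). Slc26a3 is the chloride-bicarbonate exchanger that absorbs chloride in colon, and it stood at 896, 263, 762 and 1421 CPM in N and at 294, 118, 68.6 and 234 CPM in BT-T. Its N replicate 2 level also lay within the range of the tumours. Scnn1b, a subunit of the epithelial sodium channel, was not called, with 8.17 to 26.9 CPM in N and 20.4 to 44.9 CPM in BT-T (edgeR adjusted p = 0.116).

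Carriers of nutrients and short-chain acids gave fewer calls. Of 23 tested, 3 fell and none rose, and without N replicate 2, 8 fell and 1 rose. The 3 that fell with all libraries kept the call whichever library was left out. Slc51b, a subunit of the basolateral bile acid transporter, stood at 14.2, 53.3, 8.92 and 20.99 CPM in N and at 1.95, 1.36, 0.583 and 1.06 CPM in BT-T (log2 fold change -4.28 ± 0.60, or -3.55 without N replicate 2, edgeR adjusted p = 0.00129). Slc51a, the other subunit, had 6 reads over the 4 tumours and 842 over the N libraries. Slc3a1, the heavy subunit of the transporter of cystine and dibasic amino acids (chromosome 17, 85028376 to 85064236), stood at 65.3, 23.96, 62.6 and 52.6 CPM in N and at 0.348, 1.07, 1.54 and 0.355 CPM in BT-T (log2 fold change -5.94 ± 1.16, edgeR adjusted p = 0.00744). None of the 3 overlapped between the groups, and 9.02% of all tested genes likewise lay lower in every tumour.

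Many enzymes that modify drugs, steroids and bile acids fell. Of 36 tested, 15 fell and 1 rose, with a median log2 fold change of -1.55. These were 18, 2 and -1.41 without N replicate 2. The number that fell ranged from 8 without BT-T replicate 2 to 18 without N replicate 2. Ces1g, a carboxylesterase that cleaves ester drugs and lipids (chromosome 8, 93302369 to 93337308), stood at 104, 33.0, 225 and 46.4 CPM in N and at 4.70, 4.82, 5.95 and 4.002 CPM in BT-T (log2 fold change -4.39 ± 0.55, or -3.65 without N replicate 3, edgeR adjusted p = 0.000776). The neighbouring Ces1f stood at 57.6, 47.1, 83.2 and 54.5 CPM in N and at 3.07, 1.41, 2.08 and 1.82 CPM in BT-T (log2 fold change -4.84 ± 0.69, edgeR adjusted p = 0.00137). Both were lower in every tumour than in every N library. These esterases and the Ugt2b glucuronosyltransferases are families of near-identical copies, so reads that fit several copies may be missing from their counts. The sulphotransferase Sult2b1 (-1.32), the glutathione transferase Gstm3 (-1.98) and the efflux pump Abcg2 (-1.44, log2 fold changes) fell as well and were picked from the list after their values were seen. The member that rose, the fatty acid hydroxylase gene Cyp4v3, stood at 8.68 to 20.2 CPM in N and 26.7 to 33.7 CPM in BT-T. The Cyp4v3 call was lost without any 1 library other than N replicate 2 or N replicate 4 (edgeR adjusted p 0.0793 to 0.108).

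Enzymes that build the O-linked sugars of mucins fell in part. Of 25 tested, 6 fell and none rose, and without N replicate 2, 10 fell and 2 rose. The number that fell ranged from 2 without BT-T replicate 2, 3 or 4 to 10 without N replicate 2. A4gnt, which caps glycans with alpha-linked N-acetylglucosamine (chromosome 9, 99612502 to 99622367), stood at 74.9, 79.2, 94.3 and 45.1 CPM in N and at 21.9, 11.98, 19.98 and 13.7 CPM in BT-T (log2 fold change -2.12 ± 0.28, edgeR adjusted p = 0.000947). B3gnt6, which makes the core on which most colonic mucin glycans are built, stood at 39.8 to 147 CPM in N and 0.941 to 7.45 CPM in BT-T (log2 fold change -4.91 ± 1.03, or -5.98 without BT-T replicate 3, edgeR adjusted p = 0.0112). The groups did not overlap in either gene. B3galt5, which adds galactose, stood at 498 to 896 CPM in N and 270.1 to 423 CPM in BT-T. The B3galt5 call was lost without BT-T replicate 2, 3 or 4 (edgeR adjusted p 0.0535 to 0.0668).

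Other specialised epithelial lists gave few calls. Of 17 tested markers of tuft cells, the chemosensory cells of the epithelium, 1 fell and none rose, and without N replicate 2, 3 fell. The 1 with all libraries was Rgs13. The Rgs13 call was lost without any 1 library (edgeR adjusted p 0.0516 to 0.135). Dclk1, a microtubule kinase used as a tuft cell marker, stood at 11.1 to 35.0 CPM in N and 16.7 to 19.6 CPM in BT-T (edgeR adjusted p = 0.417). Of 6 butyrophilin-like genes, which maintain intraepithelial gamma-delta T cells, 2 fell with and without N replicate 2, and none without BT-T replicate 2. Btnl1 stood at 49.4, 3.05, 46.8 and 29.9 CPM in N and at 1.12, 1.02, 0.167 and 1.72 CPM in BT-T (log2 fold change -5.002 ± 1.08, edgeR adjusted p = 0.0129). The Btnl1 call was lost without BT-T replicate 2 (edgeR adjusted p = 0.0521). The Btnl2 call was lost without any 1 library other than N replicate 2 (edgeR adjusted p 0.0620 to 0.130). The tumours held little of either gene, and N replicate 2 held the lowest Btnl1 and the highest Btnl2 of the N libraries.

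Among 28 tested genes of antimicrobial and mucosal defence, 1 rose and 1 fell, against 5 and 3 without N replicate 2. All tested genes gave 5.67% higher and 2.90% lower with all libraries, and 7.79 and 5.70% without N replicate 2. Ltf, the iron-binding lactoferrin, had 160 reads over the tumours and 3 over the N libraries. The Ltf call was lost without N replicate 1 (edgeR adjusted p = 0.0522). Itln1, a lectin that binds microbial sugars, stood at 231, 538, 584 and 157 CPM in N and at 61.6, 6.57, 91.1 and 21.9 CPM in BT-T (log2 fold change -3.06 ± 0.69, or -3.65 without BT-T replicate 3, edgeR adjusted p = 0.0173). The Itln1 call was lost without BT-T replicate 4 (edgeR adjusted p = 0.0582). Pigr, the receptor that carries IgA across the epithelium, stood at 6219.7, 2289.8, 6128 and 6372 CPM in N and at 2710.1, 2285, 1619.6 and 2426 CPM in BT-T. It was not called with all libraries (edgeR adjusted p = 0.106) and was called lower without N replicate 2 (log2 fold change -1.47 ± 0.35, edgeR adjusted p = 0.0162). Reg3g, an antibacterial lectin, was present in single libraries of both groups, at 138 CPM in N replicate 2 and 28.02 CPM in BT-T replicate 3, and at 0.202 to 4.55 CPM in the 6 other libraries. The median of this list changed sign with that library, from -0.52 to 0.53.

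Claudins, which seal or open tight junctions, gave few calls. Over all tested genes 5.67% were called higher and 2.90% lower with all libraries. Of 21 tested junction genes 1 rose and 2 fell, with and without N replicate 2. Without any other single library 1 fell, since the Cldn23 call was lost. Cldn15, a claudin that forms sodium pores in the gut (chromosome 5, 136966616 to 136975858), stood at 313, 293, 305 and 162 CPM in N and at 46.6, 29.0, 28.2 and 27.8 CPM in BT-T (log2 fold change -3.03 ± 0.31, edgeR adjusted p = 0.000325). Every tumour lay well below every N library. Cldn4, a sealing claudin, rose, with 79.4, 46.1, 62.6 and 251 CPM in N and 331, 482, 475 and 421 CPM in BT-T (log2 fold change 1.96 ± 0.45, or 2.77 without N replicate 4, edgeR adjusted p = 0.0191). The Cldn4 call was lost without N replicate 1 or 3, or BT-T replicate 2 or 3 (edgeR adjusted p 0.0535 to 0.0640). Cldn2, another pore-forming claudin, stood at 203 to 468 CPM in N and 151 to 246 CPM in BT-T and was not called (edgeR adjusted p = 0.253).

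Annexins and S100 proteins bind calcium and membranes. Of 22 tested, 4 rose and none fell. The number that rose ranged from 2 without any 1 library other than N replicate 2 to 12 without N replicate 2. Anxa5 stood at 75.01, 109, 79.3 and 78.1 CPM in N and at 256, 303, 299.98 and 293 CPM in BT-T (log2 fold change 1.76 ± 0.23, edgeR adjusted p = 0.000852). Anxa8 (chromosome 14, 34085981 to 34100571) stood at 35.1, 90.9, 16.7 and 45.2 CPM in N and at 351, 287, 476 and 207 CPM in BT-T (log2 fold change 2.81 ± 0.56, edgeR adjusted p = 0.00815). In both genes N replicate 2 held the highest level of the N group and lay below the tumours. In the 8 further members called without N replicate 2, named after their values were seen, that library lay in or above the range of the tumours. Anxa1 stood at 146, 689, 119.9 and 116 CPM in N and at 599, 664, 747 and 512 CPM in BT-T (log2 fold change 2.31 ± 0.27, edgeR adjusted p = 0.000383 without N replicate 2). S100a6 stood at 396, 2166, 268 and 312 CPM in N and at 956, 825, 759 and 729 CPM in BT-T (1.33 ± 0.32, edgeR adjusted p = 0.0182 without it). S100a14 stood at 33.4, 298, 37.8 and 69.1 CPM in N and at 212, 195, 253 and 176 CPM in BT-T (2.16 ± 0.37, edgeR adjusted p = 0.00295 without it). In all 3 genes the other N libraries lay below every tumour. The part of the length trend of N replicate 2 in these levels was not tested.

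Clade B serpins and cystatins, inhibitors of proteases, gave 1 rise among 15 tested and 3 without N replicate 2. The 1 gene was Serpinb11, at 0 to 0.406 CPM in N and 5.93 to 17.8 CPM in BT-T. It had 7 reads over the N libraries and 998 over the tumours (log2 fold change 6.48 ± 0.97, or 8.63 without N replicate 2, edgeR adjusted p = 0.00181).

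Factors of epithelia outside the colon changed in both directions. Of 22 tested, 3 rose and 1 fell, against 4 and 5 without N replicate 2. The rises numbered 1 without N replicate 1 or 3. Grhl3, a factor of the epidermal barrier (chromosome 4, 135541888 to 135573630), stood at 0.748, 1.35, 0.473 and 1.82 CPM in N and at 11.7, 12.4, 16.9 and 16.2 CPM in BT-T (log2 fold change 3.70 ± 0.44, edgeR adjusted p = 0.000533). Pax9, a factor of oesophagus and pharynx, stood at 0.0576, 0.135, 0.118 and 0.270 CPM in N and at 0.941, 1.12, 9.37 and 0.304 CPM in BT-T. BT-T replicate 3 held most of its reads. The same library held the most Tfap2a, a factor of ectoderm, 0, 0.135, 0.118 and 0 CPM in N and 0.871, 1.75, 5.79 and 0.507 CPM in BT-T. The Pax9 call was lost without N replicate 1 or 3 (edgeR adjusted p 0.0605 to 0.0697). The Tfap2a call was lost without N replicate 1, 3 or 4, or BT-T replicate 2 or 3 (edgeR adjusted p 0.0652 to 0.121). Foxa3, an endodermal factor of goblet cells, fell, with 57.9, 91.6, 66.0 and 78.97 CPM in N and 42.7, 19.9, 24.6 and 21.6 CPM in BT-T (log2 fold change -1.44 ± 0.28, edgeR adjusted p = 0.00690). Trp63 and Sox2, factors of squamous and foregut epithelium, had too few reads to be tested. Trp63 had 11 reads over the tumours and none over the N libraries.

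Promoters of called genes were read for motif letters, and 8 stretches from genes described here are shown. Each holds a motif upstream of the start. The AP-1 and TEAD stretches were taken only from genes called higher, and the HNF1 and HNF4 stretches only from genes called lower. The stretches therefore do not show how the motifs divide by direction. Sequences and starts are from RefSeq on GRCm38.p6, on the strand of the gene. Capitals mark only the motif named for that gene, read on either strand, and letters of other searched motifs stay in lower case.
Plaur (AP-1, chr7:24462387-24462447, plus strand, motif starting 69 bases before the start): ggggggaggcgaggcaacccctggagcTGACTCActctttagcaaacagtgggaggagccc
Igf1 (AP-1, chr10:87861047-87861107, plus strand, motif starting 37 bases before the start): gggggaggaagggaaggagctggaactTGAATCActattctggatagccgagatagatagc
Ppbp (AP-1, chr5:90768287-90768347, plus strand, motif starting 204 bases before the start): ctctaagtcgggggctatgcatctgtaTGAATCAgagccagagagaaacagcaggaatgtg
Acan (TEAD, chr7:79053187-79053225, plus strand, motif starting 12 bases before the start): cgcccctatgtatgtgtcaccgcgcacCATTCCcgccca
Col18a1 (TEAD, chr10:77113727-77113786, minus strand, motif starting 54 bases before the start): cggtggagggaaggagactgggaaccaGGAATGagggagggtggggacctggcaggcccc
Slc26a3 (HNF1, chr12:31438108-31438171, plus strand, motif starting 84 bases before the start): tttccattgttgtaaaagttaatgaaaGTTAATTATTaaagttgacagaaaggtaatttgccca
Slc3a1 (HNF4, chr17:85028281-85028343, plus strand, motif starting 39 bases before the start): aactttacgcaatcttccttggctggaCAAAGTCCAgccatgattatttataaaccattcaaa
Btnl2 (HNF4, chr17:34354754-34354816, plus strand, motif starting 41 bases before the start): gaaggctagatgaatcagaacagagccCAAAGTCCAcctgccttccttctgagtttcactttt

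The letters TGANTCA, searched as a loose form of the AP-1 site of FOS and JUN proteins, take any base in the middle. The stretches of Igf1 and Ppbp above hold TGAATCA, and that of Plaur TGACTCA. In lower case, the stretch of Btnl2, a gene called lower, also holds TGAATCA. That of Ppbp also holds GGAATG, and that of Slc3a1 TTTATAA, a form of the CDX letters given below. The shares below were not split by the middle base. A window ran from 250 bases before to 50 after a start and was read on either strand. At least 1 window held the AP-1 letters in 13.2% of 582 genes called higher and in 12.1% of 339 called lower. Over all 11132 tested genes with a promoter in the table the share was 6.87%. The TEAD letters GGAATG stood in 17.9, 15.6 and 14.9% in the same order. The core of the interferon response element stood in 5.50, 7.67 and 3.69%, and the CDX letters TTTATNA in 12.5, 13.3 and 8.92%. The HNF1 motif stood in 0.344, 1.18 and 0.350% (2, 4 and 39 genes), and the HNF4 letters CAAAGTCCA in 0.859, 2.06 and 0.539% (5, 7 and 60 genes). The E-box CACGTG was scarcer in called genes, 6.53 and 8.26% against 11.1%. Genes had 1.27 to 1.29 windows each in the 3 sets. A match of letters is not a bound site, and the shares were not tested.

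Among ligands of the EGF receptor family, 1 of 15 tested ligands and receptors rose and none fell (1 and 1 without N replicate 2). This is near the share of all tested genes called higher, 5.67%. The rise was Hbegf, heparin-binding EGF, at 20.1, 24.1, 17.96 and 18.97 CPM in N and 52.8, 69.9, 72.6 and 39.8 CPM in BT-T (log2 fold change 1.53 ± 0.23, edgeR adjusted p = 0.00168). Every tumour lay above every N library. The other ligands were not called. Areg stood at 8.57 to 46.03 CPM in N and 23.2 to 35.0 CPM in BT-T, Ereg at 12.95 to 54.2 CPM in N and 30.1 to 52.3 CPM in BT-T and Tgfa at 18.9 to 100.03 CPM in N and 46.6 to 72.8 CPM in BT-T (edgeR adjusted p = 0.506, 0.659 and 0.936). Egfr, the receptor, stood at 83.7, 19.7, 80.1 and 87.9 CPM in N and at 96.1, 134, 133 and 128.9 CPM in BT-T. All 4 tumours lay above all 4 N libraries, by little except for N replicate 2, and it was not called (edgeR adjusted p = 0.197).

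Genes that ERK signalling induces to restrain itself, such as dual-specificity phosphatases and Sprouty proteins, gave 2 rises and 1 fall among 25 tested, and 3 and 1 without N replicate 2. The shares over all tested genes were 5.67% higher and 2.90% lower with all libraries. The number of rises ranged from 1 without N replicate 1, or BT-T replicate 1, 2, 3 or 4 to 6 without N replicate 4. Dusp9, a phosphatase of ERK (chromosome X, 73639419 to 73643514), stood at 0.748, 0.271, 0.709 and 0.810 CPM in N and at 4.91, 4.72, 6.49 and 3.55 CPM in BT-T (log2 fold change 2.94 ± 0.55, edgeR adjusted p = 0.00554). The groups did not overlap. Dusp4, another such phosphatase, stood at 5.18, 6.63, 4.02 and 18.3 CPM in N and at 15.9, 25.5, 38.05 and 22.5 CPM in BT-T. N replicate 4 overlapped the tumours, and the gene was not called (edgeR adjusted p = 0.0534). Spry2 stood at 31.5 to 60.1 CPM in N and 39.4 to 59.1 CPM in BT-T and Spry4 at 1.76 to 28.7 CPM in N and 22.8 to 36.7 CPM in BT-T, with edgeR adjusted p of 0.594 and 0.240. The ETS factor gene Etv4 stood at 14.4 to 42.8 CPM in N and 37.8 to 60.9 CPM in BT-T (edgeR adjusted p = 0.0915) and Etv5 at 32.4 to 127 CPM in N and 23.1 to 27.5 CPM in BT-T (log2 fold change -1.63 ± 0.39, edgeR adjusted p = 0.0225). The Etv5 call was lost without any 1 library other than N replicate 2 or N replicate 4 (edgeR adjusted p 0.0548 to 0.0752). Spred1, an inhibitor of RAF activation, stood at 40.9 to 66.6 CPM in N and 87.3 to 100.2 CPM in BT-T. The Spred1 call was lost without any 1 library other than N replicate 2 or N replicate 3 (edgeR adjusted p 0.0545 to 0.118).

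Reads were counted per gene, so the counts cannot show an edit of Braf or Tgfbr2. Tgfbr2 stood at 196, 71.1, 223 and 286 CPM in N and at 314, 428, 400.4 and 527 CPM in BT-T. The tumours lay above the N libraries, and the gene was not called with all libraries (log2 fold change 1.10 ± 0.37, edgeR adjusted p = 0.0874). It was called higher without N replicate 2 (0.83 ± 0.24, edgeR adjusted p = 0.0418). Braf stood at 54.6, 14.5, 69.3 and 75.6 CPM in N and at 45.7, 60.3, 52.3 and 55.2 CPM in BT-T and was not called (edgeR adjusted p = 0.998).

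Genes of the TGF-beta, activin and BMP families gave 10 rises and no fall among 47 tested, and 11 and 1 without N replicate 2. The list holds ligands, receptors and SMADs, and also the antagonist Chrd and the protease Bmp1. The rises numbered 6 without N replicate 1. The median log2 fold change of the list was 0.47. Inhba, the subunit of activin A (chromosome 13, 16011851 to 16031621), stood at 0.403, 1.08, 0.354 and 0.675 CPM in N and at 11.4, 22.9, 22.98 and 7.80 CPM in BT-T (log2 fold change 4.69 ± 0.63, edgeR adjusted p = 0.00101). Tgfb1, the main TGF-beta ligand, stood at 13.3, 10.8, 19.6 and 23.6 CPM in N and at 85.2, 144, 132 and 128 CPM in BT-T (log2 fold change 2.86 ± 0.40, edgeR adjusted p = 0.00124). Every tumour lay above every N library for both ligands. The secreted BMP antagonists Chrd and Grem1 rose too. Chrd, chordin, stood at 2.01, 2.84, 2.78 and 3.10 CPM in N and 13.2, 19.7, 15.4 and 16.9 CPM in BT-T (log2 fold change 2.60 ± 0.30, edgeR adjusted p = 0.000531). Grem1, gremlin, stood at 26.999 to 83.5 CPM in N and 215 to 433 CPM in BT-T (log2 fold change 2.45 ± 0.54, edgeR adjusted p = 0.0155). The Grem1 call was lost without N replicate 1 (edgeR adjusted p = 0.0526). Bmp1, a protease that trims procollagens and chordin, stood at 21.2, 35.0, 21.1 and 25.1 CPM in N and 138, 184, 173 and 179 CPM in BT-T (log2 fold change 2.72 ± 0.45, edgeR adjusted p = 0.00306). Bmp4, a ligand of the crypt stroma, stood at 13.7 to 31.5 CPM in N and 19.5 to 27.7 CPM in BT-T and was not called (edgeR adjusted p = 0.858). Summed fibroblast markers stood at 863 to 1402 CPM in N and at 6182 to 12487 CPM in BT-T, and macrophage markers at 27.7 to 88.1 and 263 to 476 CPM. Their part in the levels of these ligands was not tested.

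Notch genes gave 3 rises among 22 tested, 5 without N replicate 2 and none on leaving out BT-T replicate 2, 3 or 4. The Dtx4 call was lost without N replicate 3, or BT-T replicate 2, 3 or 4 (edgeR adjusted p 0.0550 to 0.0562). Dtx4, a ubiquitin ligase of the pathway, stood at 35.8 to 68.8 CPM in N and 96.0 to 118 CPM in BT-T. The target Hes1 stood at 33.7 to 69.0 CPM in N and 55.9 to 92.4 CPM in BT-T and the ligand Jag1 at 13.3 to 39.9 CPM in N and 34.3 to 53.9 CPM in BT-T, with edgeR adjusted p of 0.456 and 0.0878. In the hedgehog pathway, which signals from epithelium to stroma, 1 of 17 tested genes fell and none rose (2 fell without N replicate 2). The fall was the ligand Shh, with 125 reads over the N libraries and 6 over the tumours. The Shh call was lost without any 1 library other than N replicate 2 (edgeR adjusted p 0.0589 to 0.139). Ihh, the ligand of differentiated colonocytes, stood at 69.6 to 119.5 CPM in N and 55.7 to 82.8 CPM in BT-T, and its target Ptch1 at 20.6 to 76.0 CPM in N and 42.7 to 85.4 CPM in BT-T (edgeR adjusted p = 0.201 and 0.598).

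Among Eph receptors, which position cells along the crypt, 3 of 19 tested receptors and ephrins rose and none fell. These counts were 3 and 2 without N replicate 2. Epha3 (chromosome 16, 63543534 to 63864175) stood at 0.863, 0.135, 1.06 and 0.810 CPM in N and at 11.9, 17.9, 10.5 and 10.9 CPM in BT-T (log2 fold change 4.14 ± 0.65, edgeR adjusted p = 0.00248). Ephb6, a member without kinase activity, stood at 1.44, 0.948, 2.30 and 4.86 CPM in N and at 16.5, 18.5, 33.1 and 14.99 CPM in BT-T (log2 fold change 3.12 ± 0.51, or 3.72 without N replicate 4, edgeR adjusted p = 0.00293). Neither overlapped between the groups. Epha2 stood at 12.6 to 69.3 CPM in N and 106 to 140.0 CPM in BT-T. The Epha2 call was lost without N replicate 1 or 3, or BT-T replicate 2 (edgeR adjusted p 0.0505 to 0.0578).

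Growth factors that act on vessels and stroma gave 3 rises and 1 fall among 35 tested, and 5 and 2 without N replicate 2. With all libraries, 5.67% of all tested genes were called higher and 2.90% lower. The receptor Pdgfrb, carried by fibroblasts and pericytes, stood at 50.4, 18.3, 45.3 and 50.96 CPM in N and 123, 209.7, 199 and 199 CPM in BT-T (log2 fold change 2.15 ± 0.34, edgeR adjusted p = 0.00248). Its ligands Pdgfb and Pdgfd rose as well, Pdgfb with 7.83, 7.58, 13.3 and 6.34 CPM in N and 23.97, 36.4, 32.2 and 20.8 CPM in BT-T (log2 fold change 1.69 ± 0.31, edgeR adjusted p = 0.00490). Pdgfd stood at 2.01, 6.02, 4.61 and 3.24 CPM in N and 9.97, 15.5, 12.4 and 16.97 CPM in BT-T (log2 fold change 1.79 ± 0.36, edgeR adjusted p = 0.00860). The receptor and both ligands were higher in every tumour than in every N library. Fgfbp1, which frees FGFs from the matrix, fell, with 92.0, 144, 102 and 63.4 CPM in N and 37.1, 22.5, 24.7 and 27.1 CPM in BT-T (log2 fold change -1.85 ± 0.35, edgeR adjusted p = 0.00668). Vegfa stood at 23.5 to 64.1 CPM in N and 57.0 to 98.9 CPM in BT-T (edgeR adjusted p = 0.0734).

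Insulin-like growth factor genes rose in a larger share. Of 15 tested, 6 rose and none fell, and 6 rose whichever library of N or BT-T was left out. Without N replicate 2, 1 of 16 tested fell. The median log2 fold change was 1.90, and 1.06 with N replicate 2 left out. The ligand Igf1 (chromosome 10, 87858265 to 87937042) stood at 8.69, 24.5, 10.6 and 23.7 CPM in N and at 69.6, 134, 132 and 189 CPM in BT-T (log2 fold change 2.96 ± 0.41, edgeR adjusted p = 0.00120). The binding protein Igfbp3 stood at 72.9, 64.8, 45.5 and 65.8 CPM in N and at 271, 399, 331 and 178 CPM in BT-T (log2 fold change 2.24 ± 0.30, edgeR adjusted p = 0.00107), Igfbp7 at 102, 137, 102 and 106 CPM in N and 404, 534, 458 and 542 CPM in BT-T (log2 fold change 2.12 ± 0.31, edgeR adjusted p = 0.00161), and Igfbp5 at 143, 74.2, 220.0 and 223 CPM in N and 1175, 2791, 1494 and 2854 CPM in BT-T (log2 fold change 3.65 ± 0.55, edgeR adjusted p = 0.00190). No library of one group reached the range of the other in these 4 genes. Over all tested genes 13.4% lay higher in every tumour. The insulin receptor adaptor Irs1 and the binding protein Igfbp4 were the other 2.

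Prostaglandin genes gave 3 rises and 2 falls among 20 tested. These counts were 4 and 1 without N replicate 2. No gene of the list fell without N replicate 1 or 3 or any 1 BT-T library. The prostaglandin E2 receptor Ptger3 (chromosome 3, 157566892 to 157645888) stood at 7.54, 2.17, 6.97 and 4.79 CPM in N and at 26.97, 29.3, 23.7 and 49.5 CPM in BT-T (log2 fold change 2.59 ± 0.48, edgeR adjusted p = 0.00564). Abcc4, a pump that exports prostaglandins and cyclic nucleotides, stood at 34.7, 23.2, 34.3 and 48.3 CPM in N and at 71.9, 114, 137 and 147 CPM in BT-T (log2 fold change 1.74 ± 0.33, edgeR adjusted p = 0.00600). In both genes every tumour lay above every N library. Ptgs2, the inducible cyclooxygenase, stood at 4.14, 102, 14.4 and 8.71 CPM in N and at 59.5, 51.7, 53.0 and 20.3 CPM in BT-T. N replicate 2 exceeded all tumours and the other N libraries lay below them. Ptgs2 was called higher without that library (log2 fold change 2.34 ± 0.71, edgeR adjusted p = 0.0471) and not with it (edgeR adjusted p = 0.786). Hpgd, which breaks prostaglandins down, stood at 151 to 294 CPM in N and 55.7 to 113 CPM in BT-T. The Hpgd call was lost without any 1 library other than N replicate 4 (edgeR adjusted p 0.0559 to 0.155).

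The plasminogen system, which activates the protease plasmin at cell surfaces, rose in part. Of 16 tested, 6 rose and none fell, and 9 rose without N replicate 2. The number ranged from 4 without N replicate 1 or 3, or BT-T replicate 2, 3 or 4 to 9 without N replicate 2. Plat, tissue plasminogen activator, stood at 5.76, 13.9, 9.22 and 11.5 CPM in N and at 141, 116, 109 and 108 CPM in BT-T (log2 fold change 3.55 ± 0.34, edgeR adjusted p = 0.000227). Plau, urokinase, stood at 9.61, 6.29, 18.8 and 12.7 CPM in N and at 36.2, 48.3, 47.5 and 37.9 CPM in BT-T (log2 fold change 1.84 ± 0.33, edgeR adjusted p = 0.00487), and its receptor Plaur at 9.33, 18.3, 16.7 and 20.8 CPM in N and at 61.7, 82.3, 62.8 and 72.6 CPM in BT-T (log2 fold change 2.101 ± 0.25, edgeR adjusted p = 0.000562). The inhibitor Serpine2 stood at 12.8, 22.3, 19.1 and 9.11 CPM in N and at 226, 267, 246.7 and 278 CPM in BT-T (log2 fold change 4.01 ± 0.57, edgeR adjusted p = 0.00141). The activators, the receptor and this inhibitor were all higher in every tumour.

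**Figure D3:**
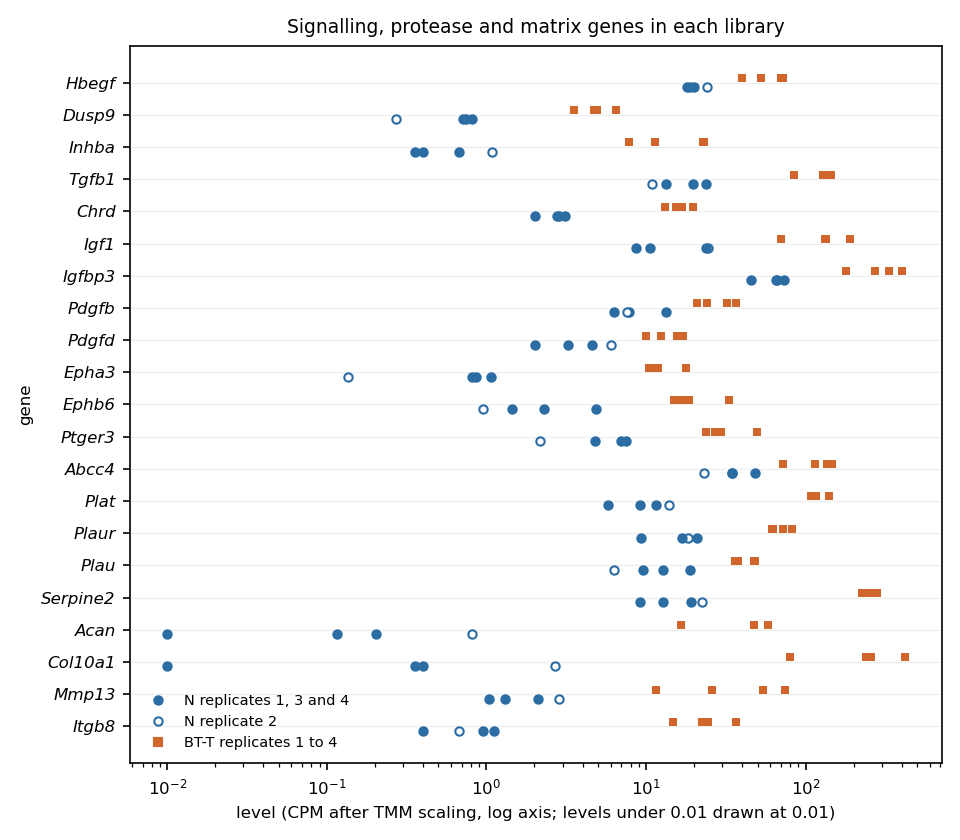
Level of 21 signalling, protease and matrix genes in each library (CPM, log axis). Circles are N libraries, with N replicate 2 open, and squares are BT-T libraries. All 21 genes drawn were called higher in BT-T and in each of them every square lies to the right of every circle. Members of the same lists that were not called or that fell, such as Egfr, Spry2 and Fgfbp1, are not drawn. The figure therefore does not show how often such genes rose. Over all tested genes, every BT-T library lay above every N library in 13.4%.

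Collagen chains rose widely. Of 39 tested, 17 rose and none fell, and without N replicate 2, 18 rose and 2 fell. The median log2 fold change was 1.83, and 1.42 with N replicate 2 left out. Col5a2, which helps to nucleate fibrils (chromosome 1, 45374321 to 45503282), stood at 51.3, 83.2, 87.0 and 84.5 CPM in N and at 536, 885, 721 and 747 CPM in BT-T (log2 fold change 3.24 ± 0.38, edgeR adjusted p = 0.000531). Col12a1, which sits on the fibril surface, stood at 46.5, 63.9, 94.9 and 99.5 CPM in N and 366, 374, 527 and 356 CPM in BT-T (log2 fold change 2.41 ± 0.35, edgeR adjusted p = 0.00158). The basement membrane chain Col18a1 stood at 42.8, 55.2, 58.7 and 77.2 CPM in N and 182, 359, 364 and 232 CPM in BT-T (log2 fold change 2.28 ± 0.31, edgeR adjusted p = 0.00113), and Col4a1 at 289, 189, 433 and 483 CPM in N and 1108, 2042, 1701 and 1319 CPM in BT-T (log2 fold change 2.15 ± 0.36, edgeR adjusted p = 0.00318). These fibrillar and basement membrane chains did not overlap between the groups.

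Enzymes that hydroxylate, trim and crosslink collagen rose beside the chains. Of 26 tested, 13 rose and none fell, and 17 rose without N replicate 2. The number ranged from 10 without N replicate 1 or 3, or BT-T replicate 4 to 17 without N replicate 2. All 4 lysyl oxidase-like genes in the list rose with all libraries. Loxl4 (chromosome 19, 42593982 to 42612813) stood at 3.17, 6.77, 6.14 and 5.20 CPM in N and at 15.6, 23.4, 22.9 and 21.8 CPM in BT-T (log2 fold change 1.98 ± 0.30, edgeR adjusted p = 0.00208). Fkbp10, a chaperone of collagen crosslinking, stood at 13.9, 13.3, 15.3 and 16.9 CPM in N and 62.7, 92.0, 74.2 and 76.2 CPM in BT-T (log2 fold change 2.36 ± 0.37, edgeR adjusted p = 0.00248). Adamts2, which removes the amino-terminal propeptide, stood at 9.73, 13.7, 15.6 and 26.3 CPM in N and 65.5, 119, 95.8 and 140.2 CPM in BT-T (log2 fold change 2.69 ± 0.44, edgeR adjusted p = 0.00294). None of the 3 overlapped between the groups, and 13.4% of all tested genes likewise lay higher in every tumour.

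Some genes best known from cartilage and bone rose, while others had few reads or none. Of 22 tested, 9 rose and none fell, and 10 rose without N replicate 2. The number ranged from 6 without N replicate 1, 3 or 4, or BT-T replicate 2 or 4 to 10 without N replicate 2, and 13 of the list's genes had too few reads to be tested. Acan, the large proteoglycan of cartilage, stood at 0.115, 0.812, 0 and 0.202 CPM in N and at 16.5, 57.8, 47.6 and 58.2 CPM in BT-T (log2 fold change 7.33 ± 0.85, or 8.69 without N replicate 2, edgeR adjusted p = 0.000531). It was all but absent from N and lowest in BT-T replicate 1. Col10a1, the collagen of hypertrophic cartilage, stood at 0.403, 2.71, 0.354 and 0 CPM in N and at 79.6, 420.1, 239 and 258 CPM in BT-T (log2 fold change 8.18 ± 1.32, or 9.86 without N replicate 2, edgeR adjusted p = 0.00282). Cilp, a matrix protein of cartilage and of activated fibroblasts, stood at 3.74, 6.29, 9.33 and 4.12 CPM in N and at 56.6, 147, 72.6 and 121 CPM in BT-T (log2 fold change 4.08 ± 0.63, edgeR adjusted p = 0.00223). Mmp13, a collagenase, stood at 1.04, 2.84, 1.30 and 2.09 CPM in N and at 74.4, 25.9, 54.5 and 11.6 CPM in BT-T (log2 fold change 4.52 ± 0.73, edgeR adjusted p = 0.00286), and Runx2, a factor of bone formation, at 1.497, 0.203, 1.12 and 2.77 CPM in N and at 12.6, 14.5, 17.3 and 11.1 CPM in BT-T (log2 fold change 3.31 ± 0.57, edgeR adjusted p = 0.00383). All 5 genes lay higher in every tumour, as did 13.4% of all tested genes. Col2a1, the main collagen of cartilage, had 1 read in N and none in BT-T. Sp7, the factor of bone-forming cells, had 5 reads in each group, and Ibsp, a bone matrix protein, 25 in BT-T and none in N. Sox9, a factor of cartilage and of crypt cells, stood at 62.0 to 191 CPM in N and 106 to 148 CPM in BT-T (edgeR adjusted p = 0.970).

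Integrins and laminins, the receptors and sheets that anchor cells to basement membrane, gave 9 rises and no fall among 36 tested, and 11 rises without N replicate 2. Itgb8, which binds latent TGF-beta (chromosome 12, 119158022 to 119238802), stood at 0.403, 0.677, 1.12 and 0.945 CPM in N and at 24.4, 14.8, 36.9 and 22.3 CPM in BT-T (log2 fold change 4.96 ± 0.56, edgeR adjusted p = 0.000498). It lay higher in every tumour. The leukocyte integrins Itgam and Itgb2 also rose, Itgam with 9.56, 10.4, 8.74 and 9.38 CPM in N and 48.4, 148, 86.9 and 71.8 CPM in BT-T (log2 fold change 3.22 ± 0.45, edgeR adjusted p = 0.00129). Itgb2 stood at 3.57, 5.01, 2.19 and 6.01 CPM in N and 34.1, 89.9, 63.4 and 57.5 CPM in BT-T (log2 fold change 3.87 ± 0.62, edgeR adjusted p = 0.00280).

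**Figure D4:**
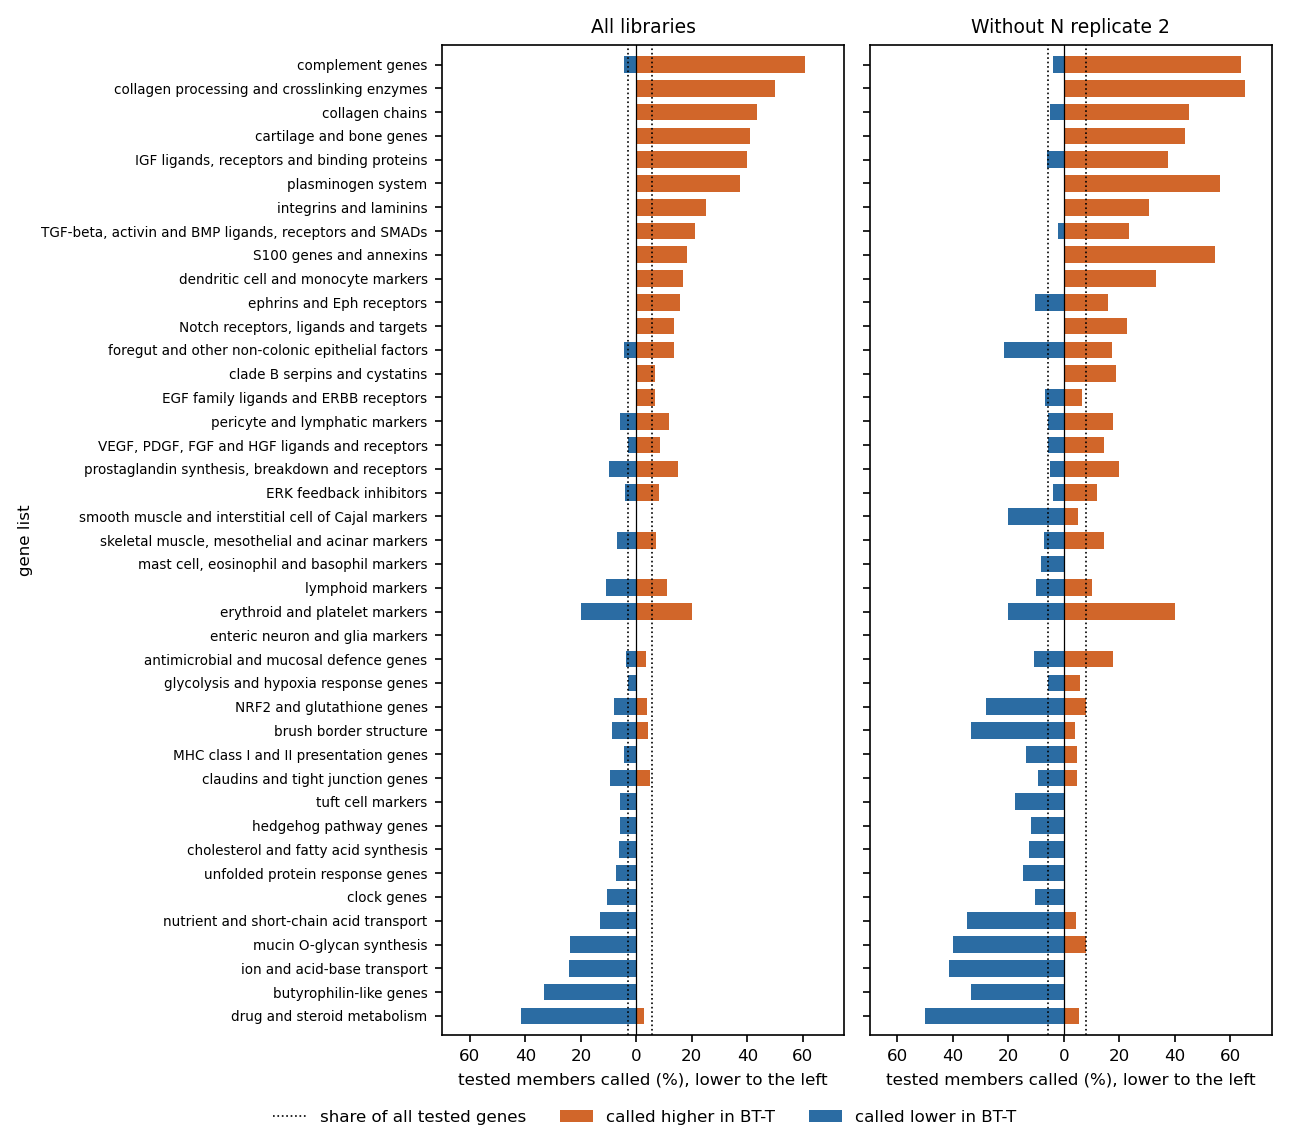
Share of the tested members of each of 41 gene lists that was called higher (orange, to the right) or lower (blue, to the left) in BT-T, with all libraries (left) and without N replicate 2 (right). Dotted lines mark the share over all tested genes, 5.67% higher and 2.90% lower with all libraries, and 7.79 and 5.70% without N replicate 2. Complement, collagen and IGF lists stand at one end and drug metabolism at the other.

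Complement, the cascade that tags and lyses targets, gave more rises than falls. Of 23 tested, 14 rose and 1 fell, with a median log2 fold change of 2.17, and 16 rose without N replicate 2. The number ranged from 7 without N replicate 1 or 3, or BT-T replicate 2 or 4 to 16 without N replicate 2. C1s1 and C1ra, the proteases of the first component, rose, C1s1 with 36.4, 28.02, 30.5 and 55.5 CPM in N and 144, 321, 163 and 269 CPM in BT-T (log2 fold change 2.58 ± 0.40, edgeR adjusted p = 0.00239). C1ra stood at 17.7, 12.5, 16.4 and 32.9 CPM in N and 64.3, 105, 67.5 and 110.4 CPM in BT-T (log2 fold change 2.13 ± 0.36, edgeR adjusted p = 0.00316). No tumour overlapped with N in either. Cfd, a protease that adipocytes secrete, fell, with 533 reads over the N libraries and 9 over the tumours (log2 fold change -6.22 ± 1.26, or -7.90 without BT-T replicate 4, edgeR adjusted p = 0.0162). The Cfd call was lost without BT-T replicate 2 (edgeR adjusted p = 0.0660). Summed adipocyte markers stood at 1.01 to 3.45 CPM in N and at 0 to 0.152 CPM in BT-T.

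Some myeloid markers rose, and most lymphoid ones had too few reads. Of 18 tested markers of dendritic cells and monocytes 3 rose and none fell, and the number that rose ranged from 2 without any 1 library other than N replicate 2 to 6 without N replicate 2. Cx3cr1, the fractalkine receptor of tissue macrophages and monocytes (chromosome 9, 119901616 to 120069879), stood at 6.33, 6.29, 10.1 and 5.80 CPM in N and at 33.1, 50.4, 50.5 and 50.3 CPM in BT-T (log2 fold change 2.69 ± 0.27, edgeR adjusted p = 0.000293). Itgax, the integrin CD11c, stood at 1.09, 0.745, 1.48 and 4.45 CPM in N and at 12.5, 29.5, 28.3 and 33.0 CPM in BT-T (log2 fold change 3.73 ± 0.80, or 4.53 without N replicate 4, edgeR adjusted p = 0.0126). Both were higher in every tumour and lowest in BT-T replicate 1 among the tumours. Of 30 lymphoid markers, 21 had too few reads to be tested. Cd3e had 1 read in N and none in BT-T, and Ncr1 had none in any of the 8 libraries. Of the 9 tested, Gata3 rose (log2 fold change 3.56 ± 0.75, edgeR adjusted p = 0.0109, 13 reads over N and 214 over BT-T) and 1 fell.

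Genes of antigen presentation gave few calls. Of 22 tested 1 fell and none rose, and without N replicate 2, 1 rose and 3 fell. B2m, the light chain of class I molecules, stood at 1169, 1145, 1166 and 1149.8 CPM in N and at 610.4, 513, 399 and 634 CPM in BT-T (log2 fold change -1.10 ± 0.28, edgeR adjusted p = 0.0299). The N libraries lay close to each other and above every tumour. The rises of this list numbered 4 without N replicate 4. The class II chain H2-Aa stood at 12.9, 34.9, 24.2 and 45.7 CPM in N and 56.6, 71.9, 52.8 and 52.4 CPM in BT-T. It was not called with all libraries (edgeR adjusted p = 0.0763) and was called higher without N replicate 2 (edgeR adjusted p = 0.0486) or N replicate 4 (edgeR adjusted p = 0.0282). DESeq2 and limma-voom with sample quality weights, both run on all libraries, called H2-Aa, Pigr and Tgfbr2 in the same directions. Limma-voom gave N replicate 2 a weight of 0.0504, against 0.932 to 4.04 for the other N and BT-T libraries. That fit therefore comes near to leaving N replicate 2 out.

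Other cell types of the colon wall gave few calls. Of 17 tested pericyte and lymphatic markers, 2 rose and 1 fell (3 and 1 without N replicate 2). Abcc9, a subunit of a potassium channel of pericytes, stood at 22.7, 10.8, 34.8 and 50.6 CPM in N and 88.5, 159, 109 and 119.9 CPM in BT-T (log2 fold change 2.004 ± 0.41, edgeR adjusted p = 0.0103), and Pdgfrb was the other that rose. Rgs5, a pericyte marker, stood at 111 to 266 CPM in N and 79.6 to 111 CPM in BT-T. The Rgs5 call was lost without any 1 library other than N replicate 2 or N replicate 4 (edgeR adjusted p 0.0792 to 0.153). Of 20 markers of smooth muscle and of interstitial cells of Cajal, the pacemakers of the gut, none was called with all libraries. With N replicate 2 left out, 4 fell and 1 rose. Kit, the receptor of the pacemaker cells and mast cells, named after its values were seen, stood at 217, 35.9, 246 and 179.7 CPM in N and 67.8, 66.8, 63.7 and 61.8 CPM in BT-T (-1.72 ± 0.24, edgeR adjusted p = 0.000946 without N replicate 2). Acta2 stood at 1348 to 2605 CPM in N and 865 to 1459.7 CPM in BT-T and Des at 1354 to 3401 CPM in N and 683 to 1124 CPM in BT-T, and neither was called. Of 26 markers of enteric neurons and glia none was called in either fit. Elavl4 stood at 0 to 8.80 CPM in N and 1.58 to 3.597 CPM in BT-T and Sox10 at 1.42 to 7.03 CPM in N and 2.21 to 5.88 CPM in BT-T.

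Of 10 tested mast cell, eosinophil and basophil markers none was called with all libraries, and 1 fell without N replicate 2. Of 14 tested markers of skeletal muscle, mesothelium and acinar cells, 1 rose and 1 fell (2 and 1 without N replicate 2). The rise was Msln, a surface glycoprotein of mesothelium and of several carcinomas, with 0.806, 5.75, 2.13 and 4.72 CPM in N and 125, 220.2, 194 and 128.5 CPM in BT-T (log2 fold change 5.64 ± 0.64, edgeR adjusted p = 0.000495). The mesothelial markers Upk3b and Lrrn4 stood at 0.0677 to 9.38 CPM in N and 0 to 3.44 CPM in BT-T and at 0 to 4.45 CPM in N and 0 to 0.963 CPM in BT-T. Both ranges overlapped between the groups. Wt1, a factor of mesothelium and some other cells, stood at 0.135 to 1.35 CPM in N and 2.63 to 11.1 CPM in BT-T. It was higher in every tumour and was not called (log2 fold change 3.67 ± 1.14, edgeR adjusted p = 0.0667). Ckm, muscle creatine kinase, stood at 17.4 to 51.5 CPM in N and 3.71 to 9.20 CPM in BT-T. The Ckm call was lost without any 1 library other than N replicate 2 or N replicate 4 (edgeR adjusted p 0.0591 to 0.122). Of 5 tested erythroid and platelet markers, 1 rose and 1 fell (2 and 1 without N replicate 2). Ppbp, a platelet chemokine precursor, had 7 reads over the N libraries and 632 over the tumours (log2 fold change 5.88 ± 0.86, edgeR adjusted p = 0.00159). The Tfrc call was lost without N replicate 4, or BT-T replicate 2, 3 or 4 (edgeR adjusted p 0.0594 to 0.101). The globin genes Hba-a1 and Hbb-b1 had no read in any library. They have near-identical copies, which the counting could miss.

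**Figure D5:**
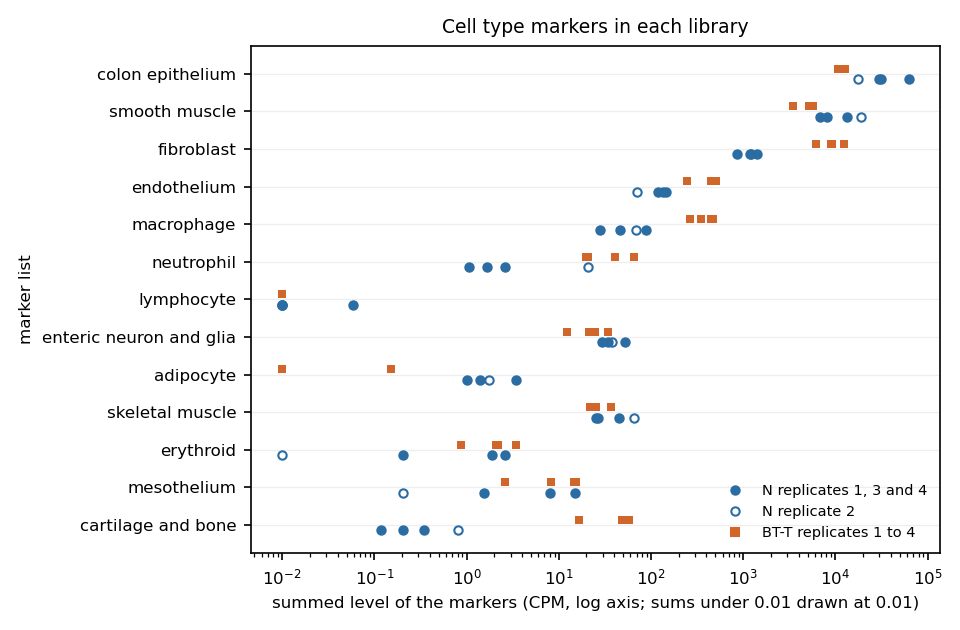
Summed level of the markers of each cell type in each library (CPM, log axis, sums under 0.01 drawn at 0.01). Circles are N libraries, with N replicate 2 open, and squares are BT-T libraries. Fibroblast, endothelial and macrophage sums are higher in every BT-T library than in every N library, and epithelial and smooth muscle sums lower. The epithelial sum depends strongly on Muc2, at 48471 of 62413 CPM in N replicate 3 and 17353 of 30060 CPM in N replicate 1. Muc2 stood at 1643 to 2680.5 CPM in BT-T. The epithelial markers Epcam, Cdh1, Krt8 and Krt19 were not called. The cartilage and bone sum is also higher in every BT-T library. In BT-T nearly all of it is Acan (16.5 to 58.2 CPM of sums of 16.8 to 58.3 CPM). Of its 4 markers only Acan had enough reads to be tested.

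The summed markers of 13 cell types were set side by side. Of 6 fibroblast markers 5 rose, and the sum stood at 863 to 1402 CPM in N and at 6182 to 12487 CPM in BT-T. Of 4 endothelial markers 2 rose, with sums of 71.1 to 144 and 246 to 512 CPM. All 4 macrophage markers rose, with sums of 27.7 to 88.1 and 263 to 476 CPM. Of 4 neutrophil markers 1 rose, and 4 without N replicate 2, which at 20.8 CPM lay far above the 1.06 to 2.59 CPM of the other N libraries and within the 19.7 to 64.7 CPM of the tumours. Of 6 smooth muscle markers none was called, and the sums stood at 6813 to 18772 CPM in N and at 3457 to 5653 CPM in BT-T. Of 10 epithelial markers 3 fell, namely Muc2, Krt20 and Cdx2. Their sums stood at 17452 to 62413 CPM in N and at 10599 to 12635 CPM in BT-T. Muc2 alone stood at 3766 to 48471 CPM in N and at 1643 to 2680.5 CPM in BT-T, so these sums depend strongly on it. Summed markers of enteric neurons and glia stood at 29.8 to 52.6 and 12.2 to 34.2 CPM, mesothelial ones at 0.203 to 15.2 and 2.63 to 15.6 CPM, skeletal muscle ones at 25.1 to 65.4 and 22.01 to 36.6 CPM, and erythroid ones at 0 to 2.59 and 0.871 to 3.44 CPM. These sums overlapped between the groups.

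Metabolic and stress lists gave few calls with all libraries, where 5.67% of all tested genes were called higher and 2.90% lower. Of 34 tested genes of glycolysis and the hypoxia response, 1 fell and none rose (2 rose and 2 fell without N replicate 2). The fall was Higd1a, a mitochondrial survival factor, with 37.999 to 125 CPM in N and 12.6 to 18.3 CPM in BT-T (log2 fold change -2.09 ± 0.39, edgeR adjusted p = 0.00562). The glucose transporter Slc2a1 stood at 113 to 344 CPM in N and 192 to 352 CPM in BT-T (edgeR adjusted p = 0.505). Of 32 genes of cholesterol and fatty acid synthesis, 2 fell and none rose, and 4 fell without N replicate 2. None fell without BT-T replicate 2 or 4. Hmgcs1, which makes the precursor of mevalonate, stood at 436, 351, 411 and 621 CPM in N and 169, 221, 239 and 211 CPM in BT-T. It was lower in every tumour, and was not called with all libraries (edgeR adjusted p = 0.0523). It was called under 6 of 17 settings, among them the one without N replicate 2 (edgeR adjusted p = 0.0223).

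Of 27 tested genes of the unfolded protein response, 2 fell and none rose, and 4 fell without N replicate 2. None fell without BT-T replicate 2, 3 or 4. They were Agr2, given above, and Dnajb11. The Dnajb11 call was lost without any 1 library other than N replicate 2 (edgeR adjusted p 0.0620 to 0.159). Hspa5, the main chaperone of the endoplasmic reticulum, stood at 415, 1829.8, 471 and 647 CPM in N and 561, 427, 453 and 415 CPM in BT-T. Only N replicate 2 lay apart, and the gene was not called (edgeR adjusted p = 0.242, and 0.778 without it). Of 25 genes controlled by the oxidative stress factor NRF2 or of glutathione use, 1 rose and 2 fell (2 rose without N replicate 2). The number that fell ranged from 1 without any 1 library other than N replicate 2 or N replicate 4 to 7 without N replicate 2. Nqo1, a quinone reductase, fell, with 35.4, 76.2, 45.2 and 42.4 CPM in N and 12.3, 14.3, 14.4 and 8.31 CPM in BT-T (log2 fold change -2.01 ± 0.37, edgeR adjusted p = 0.00549). Hmox1, which degrades haem and is high in macrophages, rose, with 4.55, 11.3, 5.14 and 12.6 CPM in N and 44.5, 77.8, 39.6 and 26.8 CPM in BT-T (log2 fold change 2.49 ± 0.46, edgeR adjusted p = 0.00594).

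Of 19 clock genes 2 fell in both fits and none rose. Cry1, a repressor of the clock, stood at 45.5, 20.2, 49.2 and 23.96 CPM in N and 7.53, 9.35, 10.6 and 6.13 CPM in BT-T (log2 fold change -2.05 ± 0.34, edgeR adjusted p = 0.00310). The clock gene Nr1d1 varied widely within N, with 64.4, 22.8, 13.8 and 202 CPM in N and 162, 164.8, 143 and 181 CPM in BT-T (edgeR adjusted p = 0.321). Arntl, which Nr1d1 represses, stood at 78.0, 4.67, 83.7 and 15.7 CPM in N and 25.1, 17.04, 13.8 and 22.2 CPM in BT-T (edgeR adjusted p = 0.305), and Dbp, another rhythmic gene, at 4.72, 19.8, 2.48 and 65.4 CPM in N and 13.8, 34.6, 24.2 and 21.1 CPM in BT-T. N replicates 1 and 3 held the most Arntl and the least Dbp of the N libraries. In a fit without N replicate 4, 2 clock genes rose. The labels used here give no hour of sampling.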

How the data were processed

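Poly(A) RNA was read as single-end 100-base reads from a stranded kit, per the labels' protocols. STAR 2.4.2a and mouse build mm10 are named in the submitters' processing notes, and the deposited files hold whole-number read counts per gene symbol in 3 strand settings. Column 4 was used here, the first 4 summary lines were dropped, and 0 other columns of samples were left unmapped. All reads that name a gene entered the library size. Genes were kept by filterByExpr, scaled with TMM and tested with glmQLFit (robust) and glmQLFTest of edgeR 4.0.16 in R 4.3.3, with 12 libraries in the fit, two-sided, with Benjamini-Hochberg adjustment over all tested genes. SE is the log2 fold change over the root of the test statistic.

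Members and gene lists were chosen with earlier results of these data known, so counts over lists are descriptions. Genes named are the 15 largest rises and 15 largest falls in mean CPM among genes called in both fits without overlap, up to 4 called members of each list and direction with the lowest adjusted p, and a set of markers named whatever their values. Other genes are marked where they appear. Some genes that this rule takes are not reported here. Gene positions were looked up by symbol in GENCODE M21 (GRCm38), and promoters in RefSeq on GRCm38.p6. On simulated counts 4, 60, 82 and 94% of 50 genes changed by 2, 4, 8 and 16 times were recovered, with 5 false calls among 14630 genes. The 16 alternatives, with DESeq2 1.42.0 and limma 3.58.1 among them, are in the closing section.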

Additional observations from a re-analysis of the deposited data

Results flagged for a closer look

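For 333 sets of the 4 libraries of a group, 1 for each gene named and group with enough reads, the most distant library's gap to the next, as a share of the group's whole range on the log2(CPM + 0.5) scale, was set against Dixon's 95% critical value for 4 samples. Chance flags about 1 in 20 such sets, and 32 passed. Of these, 15 were N replicate 2 (7 high and 8 low) and 7 were BT-T replicate 1. Each gene below has the share of the range, the level in that library and the levels in the other 3.

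N replicate 2 lay above the rest of its group for Spp1 (0.916, at 61.5 against 3.71 to 4.79 CPM), Oit1 (0.840, at 4744 against 921 to 1197 CPM), Slc25a5 (0.889, at 2323 against 711 to 811 CPM) and Rgs13 (0.931, at 13.8 against 3.28 to 3.64 CPM). The same held for Anxa5 (0.848, at 109 against 75.01 to 79.3 CPM), S100a11 (0.859, at 362 against 74.6 to 93.2 CPM) and Igfbp7 (0.868, at 137 against 102 to 106 CPM). N replicate 2 lay below the rest of its group for Dusp9 (0.849, at 0.271 against 0.709 to 0.810 CPM), Pdgfrb (0.883, at 18.3 against 45.3 to 50.96 CPM), Ptger4 (0.853, at 20.2 against 66.9 to 82.1 CPM) and Egfr (0.938, at 19.7 against 80.1 to 87.9 CPM). The same held for Bmp4 (0.901, at 13.7 against 29.1 to 31.5 CPM), Vil1 (0.909, at 245 against 757 to 848 CPM), Pigr (0.962, at 2289.8 against 6128 to 6372 CPM) and Hnf4a (0.863, at 385 against 1164 to 1387 CPM). BT-T replicate 1 lay above the rest of its group for Cldn15 (0.921, at 46.6 against 27.8 to 29.0 CPM). BT-T replicate 1 lay below the rest of its group for Pdgfrb (0.901, at 123 against 199 to 209.7 CPM), Loxl4 (0.830, at 15.6 against 21.8 to 23.4 CPM), Acan (0.840, at 16.5 against 47.6 to 58.2 CPM) and Cx3cr1 (0.989, at 33.1 against 50.3 to 50.5 CPM). The same held for Itgax (0.838, at 12.5 against 28.3 to 33.0 CPM) and Egfr (0.876, at 96.1 against 128.9 to 134 CPM). BT-T replicate 3 lay above the rest of its group for Col12a1 (0.871, at 527 against 356 to 374 CPM) and Reg3g (0.981, at 28.02 against 0.292 to 0.348 CPM). BT-T replicate 3 lay below the rest of its group for Aqp8 (0.852, at 22.1 against 46.6 to 52.9 CPM). BT-T replicate 4 lay above the rest of its group for Gli1 (0.877, at 15.9 against 4.62 to 5.40 CPM). BT-T replicate 4 lay below the rest of its group for Ptgs2 (0.868, at 20.3 against 51.7 to 59.5 CPM). N replicate 3 lay above the rest of its group for Anxa6 (0.838, at 95.6 against 65.3 to 69.5 CPM) and Cx3cr1 (0.845, at 10.1 against 5.80 to 6.33 CPM). N replicate 4 lay above the rest of its group for Nov (0.8293, at 749 against 662 to 676 CPM). N replicate 4 lay below the rest of its group for Cldn15 (0.898, at 162 against 293 to 313 CPM). N replicate 1 lay below the rest of its group for Col5a2 (0.917, at 51.3 against 83.2 to 87.0 CPM).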

How the results depend on the processing

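Among the named genes called with all libraries none changed sign under any of the 16 alternatives. Braf, Dbp, Gli1, Krt19, Reg3g, Sox9, Sox10 and Tgfa, which were not called, changed sign under 1 or more. Leaving out 1 library at a time gave 624 (without BT-T replicate 2) to 2030 (without N replicate 2) called genes, 469 to 1172 higher and 155 to 858 lower, where all libraries gave 1274, 843 and 431. The calls found with all libraries numbered 624 among the 624 and 1230 among the 2030. With N and BT-T alone and N replicate 2 left out, 4387 genes were called, 2396 higher and 1991 lower. DESeq2 called 2418 genes, 1387 higher and 1031 lower. Limma-voom with sample quality weights called 6155 genes, 2988 higher and 3167 lower, so that lower calls outnumbered higher ones. Its weight for N replicate 2 was 0.0504, against 0.932 to 4.04 for the other N and BT-T libraries. The cause of these differences was not tested. The share of calls that were higher was 66.2% with all libraries, 57.7% without N replicate 2, 57.4% with DESeq2, and 48.5% with voom weights. Within 1.5 times of the 3 counts lay RLE size factors (1281 called), no filter on low counts (1186), N and BT-T alone (1404) and the unstranded column (1242). Deviations of same-numbered N and BT-T libraries correlated at -0.249, -0.101, -0.027 and 0.239, and those of differently numbered ones at -0.363 to 0.355. The first values lie within the second range, so they cannot decide whether replicate numbers pair the samples. With the replicate number as a block, 945 genes were called, 702 higher and 243 lower. At this spread (biological coefficient of variation 0.501) changes of 2 times were seldom recovered in simulation, so a gene that was not called may still differ.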
